A study of Homo sapiens with 12 samples.

Results

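The 35 genes described here encode the proteins that carry a new secretory protein into the endoplasmic reticulum (ER), fold it there and remove it when folding fails. They were taken as a list of gene names, which was drawn up with earlier results of these data known, and were looked up by Ensembl ID among the 57820 genes of the count table. They comprise 11 folding chaperones and co-chaperones, 4 protein disulfide isomerases, 9 genes for the degradation of misfolded proteins, 8 for translocation and signal peptide cleavage, and 3 stress sensors and membrane-bound transcription factors. Total RNA came from 3 established human lines, JVM3, HG3 and MEC1, which the labels give as chronic lymphocytic leukaemia, a B cell cancer. Every line has a group with wild-type and a group with mutant U1 (g.3A>C), and each of these 6 groups has 2 technical replicates, 12 libraries in all. U1 is a small nuclear RNA of the spliceosome, and its 5' end pairs with the 5' splice site, the start of an intron, and position 3 lies in that pairing stretch. No treatment or time is labelled, and how the mutant U1 was brought into the cells, and whether a line is 1 clone, is not stated in them. The comparison of mutant with wild-type cells of the same line asks how the mutant U1 changes RNA levels and splicing. All 35 genes passed the filter on low counts, which kept 21270 genes, and junctions of 24 of them were located in the junction table (332 junctions of 170723).

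Nascent secretory and membrane proteins enter the ER through the SEC61 channel, where signal peptidase cuts off the signal peptide. HSPA5 (also called BiP or GRP78), HSP90B1, calnexin and calreticulin then assist folding, and disulfide isomerases form and exchange disulfide bonds. Glycoproteins that do not fold have mannoses trimmed by EDEM proteins and are sent through the SEL1L-SYVN1 (HRD1) and derlin complex to the proteasome, a route called ER-associated degradation. When unfolded proteins accumulate, the sensors ERN1 (IRE1), ATF6 and EIF2AK3 (PERK) start the unfolded protein response. XBP1 and ATF6 then raise the transcription of many genes of this group through promoter elements named ERSE, ERSE-II and UPRE. The response is best known in the B lineage for equipping plasma cells, which secrete antibody.

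Promoters are shown first because these elements are what many genes of the group have in common. RefSeq promoters (250 bases before to 50 after a start, GRCh38.p14) were found for 31 of the 35 genes, 40 promoters in all. Both strands were searched for ERSE (CCAAT, then any 9 bases, then CCACG), ERSE-II (ATTGG, then any 1 base, then CCACG) and UPRE (TGACGTGG). ERSE and ERSE-II share the letters CCACG, whose reverse complement lies in UPRE, so a UPRE may overlap either. An ERSE was matched in 8 of the 40 promoters (20%), which belong to 6 genes, PDIA6, CANX, HSPA5, HSP90B1, CALR and CRELD2, against 0.0769% of all 35116 promoters of the same length. The CANX matches are 1 site in overlapping promoter windows, counted once per window. ERSE-II was matched in 3 (7.5%), those of HYOU1, HERPUD1 and SDF2L1, against 0.0541%, and UPRE in 2 (5%), those of SSR3 and HYOU1, against 0.729%. In all, 10 of the 31 genes held at least 1 match, in 12 of the 40 promoters, against 0.857% of all promoters. A match is a run of letters and not a measured binding site. The elements were chosen because genes of this group are known to carry them, so the excess over all promoters is not an independent result. The 250 bases before the start are printed here for 3 genes with matches and for EDEM1 and EDEM2, the genes called across lines in the results. Capitals mark the fixed letters of a match on either strand. The EDEM1 and EDEM2 windows held no match to these letters.
HSPA5 promoter, chr9:125241344-125241593, minus strand: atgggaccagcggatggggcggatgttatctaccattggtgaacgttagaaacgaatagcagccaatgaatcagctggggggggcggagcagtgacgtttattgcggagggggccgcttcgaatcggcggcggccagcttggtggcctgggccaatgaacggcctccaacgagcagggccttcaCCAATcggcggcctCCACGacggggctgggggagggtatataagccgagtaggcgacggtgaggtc
HERPUD1 promoter, chr16:56931892-56932141, plus strand: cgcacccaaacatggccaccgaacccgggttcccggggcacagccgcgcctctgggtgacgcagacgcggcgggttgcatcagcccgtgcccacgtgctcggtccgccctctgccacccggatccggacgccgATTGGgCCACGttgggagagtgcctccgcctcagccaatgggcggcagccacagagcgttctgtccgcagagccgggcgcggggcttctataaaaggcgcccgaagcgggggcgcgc
HYOU1 promoter, chr11:119057206-119057455, minus strand: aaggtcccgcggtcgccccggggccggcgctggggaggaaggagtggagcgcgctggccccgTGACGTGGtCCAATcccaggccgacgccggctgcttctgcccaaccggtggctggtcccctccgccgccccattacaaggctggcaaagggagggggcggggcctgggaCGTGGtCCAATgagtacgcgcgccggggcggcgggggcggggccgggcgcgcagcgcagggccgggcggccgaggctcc
EDEM1 promoter, chr3:5187457-5187706, plus strand: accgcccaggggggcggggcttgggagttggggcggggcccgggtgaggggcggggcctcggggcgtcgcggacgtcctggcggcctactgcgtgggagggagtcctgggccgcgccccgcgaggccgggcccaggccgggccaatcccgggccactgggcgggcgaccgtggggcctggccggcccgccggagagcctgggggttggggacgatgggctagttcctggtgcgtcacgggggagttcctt
EDEM2 promoter, chr20:35147337-35147586, minus strand: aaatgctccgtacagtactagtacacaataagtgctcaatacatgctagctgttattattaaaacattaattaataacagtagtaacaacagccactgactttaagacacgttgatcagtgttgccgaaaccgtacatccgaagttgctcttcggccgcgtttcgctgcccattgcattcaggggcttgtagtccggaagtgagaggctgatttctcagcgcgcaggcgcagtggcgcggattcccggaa

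Libraries held 29880079 to 39716818 counts assigned to genes. Levels are CPM, counts scaled to the library total with TMM factors, and levels of different genes are compared only per kb of annotated exon. The 35 genes had a median of 138 CPM over all libraries, against 6.03 CPM for all genes tested, and all 35 were above 10 CPM. Their fold changes were therefore measured with more counts than those of a typical gene, and the shares of all genes called are also given for the 9624 genes with a mean of at least 10 CPM. The 6 B cell markers used, among them CD79A, CD79B and PAX5, summed to 1594 to 2099 CPM in every library, as the label of the lines has it. The 5 T cell markers found summed to at most 1.03 CPM, the 6 monocyte markers to at most 2.33 and the 4 red cell markers to at most 0.766. Of the 4 NK cell markers only GNLY exceeded 1 CPM in any library, in MEC1, where the list summed to 12.02 to 13.3 CPM. The mutated base of U1 itself was not checked here.

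In wild-type cells the lines differed in how much of this machinery they carried. The summed level of the 35 genes was 8110 and 8243 CPM in JVM3. HG3 held 6327 and 6387 CPM and MEC1 8676 and 8776. HG3 was lowest and MEC1 highest, and no library of one line overlapped those of another. MEC1 had the highest wild-type level in 25 of the 35 genes (71.4%, against 35.6% of all genes tested) and HG3 the lowest in 20 (57.1%, against 28.4%). All 8 translocation genes and all 4 disulfide isomerases were highest in MEC1. The wild-type level differed between lines by at least 2-fold, with an adjusted p under 0.05 in edgeR's quasi-likelihood F-test, for 12 of the 35 genes (34.3%), against 49.4% of all genes and 31.9% of those with at least 10 CPM. The median fold between the highest and the lowest line was 1.70 for the 35 genes and 2.15 for all genes. Since replicates are labelled technical and nothing says they came from separate cultures, every p within or between lines measures the spread between these libraries only.

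**Figure D1:**
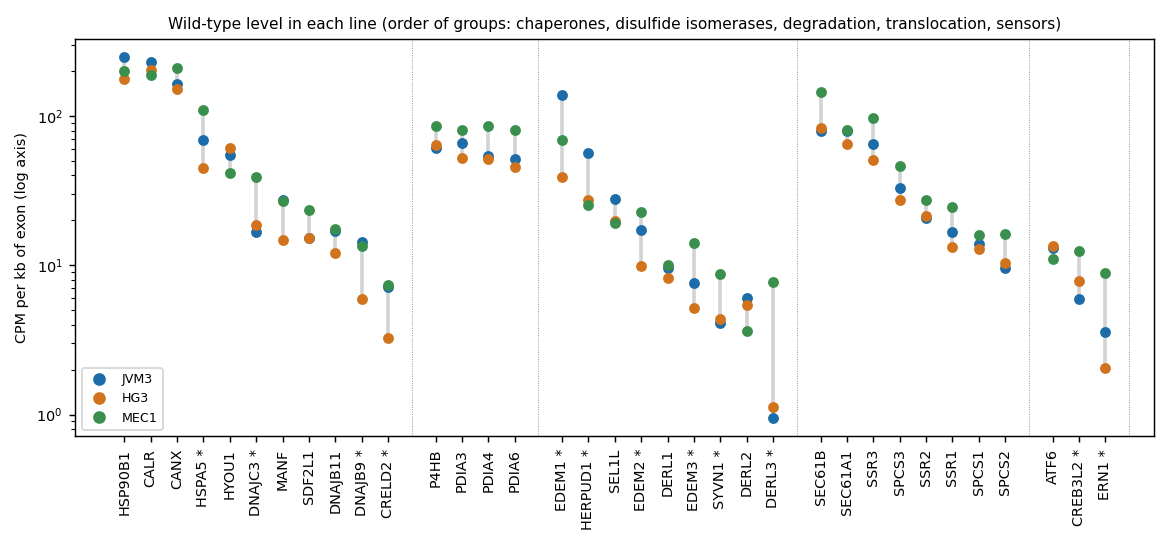
Wild-type level of the 35 genes in CPM per kb of exon (vertical log axis, mean of 2 libraries), 1 point per line, with grey bars from the lowest to the highest line and dotted lines between roles. Stars mark the 12 genes with at least a 2-fold difference called between lines, and MEC1 is the highest point for 25 of the 35 genes.

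Per kb, the most abundant of these RNAs were those of CALR (226 CPM per kb over all libraries), HSP90B1 (209) and CANX (174), the lectin and HSP90-type chaperones. The least abundant were DERL3 (3.12 CPM per kb), a derlin of the degradation complex, and ERN1 (4.55), the sensor kinase and nuclease. Within the EDEM family, EDEM1 RNA (71.4 CPM per kb) was more abundant than that of EDEM2 (13.4) or EDEM3 (9.26). The largest wild-type folds between lines belonged to DERL3 (8.23-fold, highest in MEC1), ERN1 (4.31-fold, highest in MEC1), EDEM1 (3.55-fold, highest in JVM3) and EDEM3 (2.72-fold, highest in MEC1). The other 8 genes past 2-fold were HSPA5, DNAJC3, CRELD2, EDEM2, SYVN1 and CREB3L2, highest in MEC1, and DNAJB9 and HERPUD1, highest in JVM3. ATF6 (1.23-fold), CALR (1.21-fold) and DERL1 (1.21-fold) had the smallest folds.

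Across the 3 lines, mutant U1 came with lower RNA of 2 degradation genes, EDEM1 and EDEM2, and with no called rise. Technical replicates were summed and the line was a block in edgeR's quasi-likelihood test, so n = 3 lines, and p-values were adjusted by Benjamini-Hochberg over all 21270 genes. The 2 genes called are 5.71% of the 35, against 3.69% of all genes tested (1.83% rose and 1.86% fell) and 4.8% of those with at least 10 CPM, so the share called lay near the background. At an unadjusted p under 0.05 there were 9 of the 35, with 2 higher and 7 lower. Of all 21270 genes 4635 passed that threshold, 2193 higher and 2442 lower. The median log2 fold change of the 35 was -0.04, against -0.01 for all genes, and their values ran from -0.68 to 0.24. In these bulk libraries fewer cells of a kind and less RNA per cell cannot be told apart.

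EDEM1, which recognises and trims misfolded glycoproteins, was lower with mutant U1 in every line. It stood at 938 and 947 CPM in wild-type and 698 and 706 in mutant JVM3 libraries, at 262 and 270 against 215 and 222 in HG3, and at 460 and 471 against 297 and 304 in MEC1. No mutant library overlapped a wild-type library of its line. The log2 fold change across lines was -0.45 (SE 0.10 over 3 lines, edgeR adjusted p = 0.0373). EDEM2, a mannosidase that makes the first mannose cut on a misfolded glycoprotein, was lower by more. Its level was 33.7 and 32.4 CPM in wild-type and 26.7 and 25.9 in mutant JVM3 libraries, 19.0 and 18.9 against 11.97 and 12.2 in HG3, and 43.5 and 43.3 against 21.4 and 20.4 in MEC1. Here too no groups overlapped, and the MEC1 mutant libraries held the lowest share of their wild-type level. Across lines the log2 fold change was -0.68 (SE 0.21, n = 3 lines, edgeR adjusted p = 0.0381). Both calls depended on which lines entered: without MEC1 neither gene passed (EDEM1 adjusted p = 0.0863, EDEM2 0.1065), without JVM3 EDEM1 was lost (0.1095), and without HG3 EDEM2 was lost (0.0849). The direction was the same in each of those fits.

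Within single lines many more of the genes changed, in different directions by line. In JVM3, 13 of the 35 rose and 7 fell, against 10.4% rising and 12% falling among all genes, 22.4% either way (18.7% and 19.8% of genes with at least 10 CPM). In HG3, 7 rose and 11 fell, where 38.3% of all genes changed either way (all genes 18.7% and 19.6%, at least 10 CPM 26% and 33%). In MEC1, 3 rose and 18 fell, or 8.57% and 51.4%, against 18% and 18.6% of all genes (36.6% either way) and 28.4% and 30% of those with at least 10 CPM. The medians of the 35 log2 fold changes were 0.05, -0.01 and -0.12 in JVM3, HG3 and MEC1, where those of all genes were -0.02, 0.01 and 0.00. Summed over the 35 genes, mutant libraries held 8295 and 8406 CPM in JVM3 and 6502 and 6465 in HG3, in both lines above the wild-type libraries, and 7715 and 7703 in MEC1, below them. Abundant genes weigh most in such a sum. In HG3 the mean of HYOU1 went from 472 to 656 CPM, more than the sum rose, so the other genes together were lower. In JVM3 CALR went from 622 to 786 CPM and EDEM1, the other way, from 942 to 702. The JVM3 count rested on single libraries: it was 11 (7 rose, 4 fell) without wild-type replicate 1 and 12 (8 rose, 4 fell) without mutant replicate 2.

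**Figure D2:**
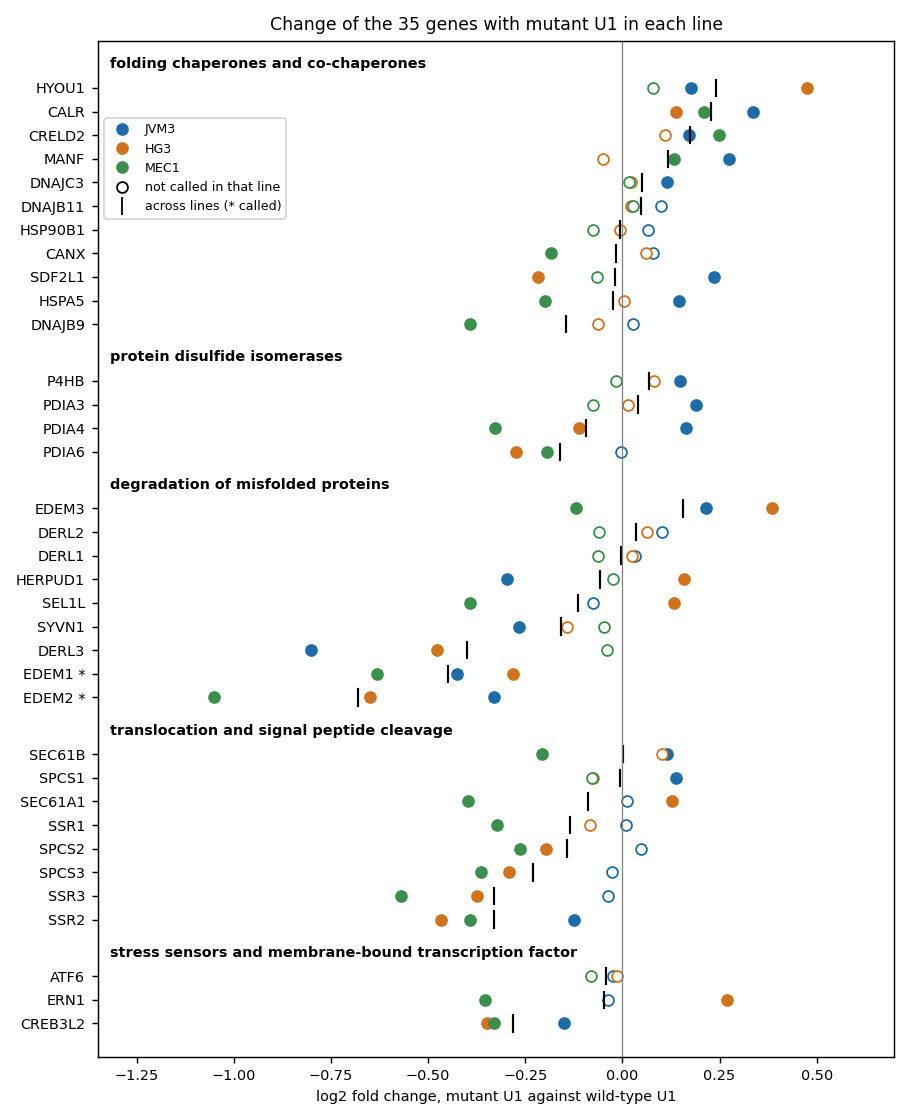
Log2 fold change of mutant against wild-type U1 (horizontal axis) for the 35 genes, grouped by role, with 1 point per line, filled where called in that line at an adjusted p under 0.05, and a black tick for the fit across lines. EDEM1 and EDEM2, starred, are the 2 genes called across lines, and the MEC1 points of all 8 translocation genes lie left of 0.

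The response itself differed between lines for 28 of the 35 genes (80%), by the F-test of the interaction of line and U1 status in edgeR's quasi-likelihood fit at an adjusted p under 0.05, against 32% of all genes and 56.2% of those with at least 10 CPM. CALR rose in all 3 lines (all genes 4.34%), and 4 genes fell in all 3, EDEM1, EDEM2, SSR2 and CREB3L2 (4.65%). Another 9 rose in one line and fell in another (5.39%), namely HSPA5, SDF2L1, PDIA4, EDEM3, HERPUD1, SEL1L, SEC61A1, SEC61B and ERN1. HSP90B1, DNAJB11, DERL1, DERL2 and ATF6, 5 genes, were called in no line (43.3%).

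Among the 11 chaperones and co-chaperones, 7 rose and 0 fell in JVM3, 2 rose and 1 fell in HG3, and 3 rose and 3 fell in MEC1. Across lines neither edgeR nor DESeq2 called any of them. At an unadjusted p under 0.05 there were 2, HYOU1 and CALR, where 4635 of all 21270 genes passed. For this role and those below, the shares of all genes that rose and fell in each line are those given above. CALR encodes calreticulin, the soluble lectin chaperone that retains glycoproteins until they fold. In JVM3 it stood at 618 and 626 CPM in wild-type and 781 and 790 in mutant libraries, in HG3 at 555 and 554 against 611 and 610, and in MEC1 at 520 and 511 against 617 and 577. Mutant libraries were above wild-type libraries in every line, with no overlap, and the value across lines was 0.23 (log2, SE 0.06, edgeR adjusted p = 0.163). CALR is described at this length because it was the 1 gene that rose in every line, seen after its values were known. HYOU1, a nucleotide exchange factor for HSPA5, rose in JVM3 (log2 0.18) and HG3 (0.48), with 0.08 in MEC1 (adjusted p = 0.0641). CRELD2 and MANF, small secreted stress-induced proteins, rose in JVM3 and MEC1 (log2 0.17 and 0.25 for CRELD2, 0.27 and 0.13 for MANF).

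HSPA5, the HSP70 chaperone of the ER lumen whose RNA is the usual readout of the unfolded protein response, moved in opposite directions. It stood at 258 and 285 CPM in wild-type and 313 and 289 in mutant JVM3 libraries, at 174 and 177 against 177 and 175 in HG3, and at 436 and 417 against 367 and 376 in MEC1. The groups overlapped in HG3. Mutant libraries were higher in JVM3, where the nearest values were 285 and 289 CPM, and lower in MEC1. HSPA5 rose in JVM3 (log2 0.15, adjusted p = 0.00742) and fell in MEC1 (-0.20, adjusted p = 9.4e-05), both in edgeR's quasi-likelihood fit. Across lines it was at -0.02 (SE 0.10, adjusted p = 0.916). DNAJB9, a co-chaperone that acts on HSPA5 and ERN1, fell in MEC1 (-0.39), as did CANX, the membrane-bound lectin chaperone (-0.18). SDF2L1, a partner of HSPA5 co-chaperones, rose in JVM3 (0.23) and fell in HG3 (-0.22), and DNAJC3, a further HSPA5 co-chaperone, rose in JVM3 (0.12). HSP90B1 and DNAJB11 were called in no line, with values between -0.08 and 0.10.

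Of the 4 disulfide isomerases, 3 rose and 0 fell in JVM3, and 0 rose and 2 fell in each of HG3 and MEC1. All 4 differed in response between lines, where 56.2% of genes with at least 10 CPM did. PDIA4, which has an extra thioredoxin-like domain, stood at 178 and 173 CPM in wild-type and 198 and 196 in mutant JVM3 libraries, at 170 and 167 against 156 and 156 in HG3, and at 275 and 289 against 227 and 223 in MEC1. Mutant libraries were above in JVM3 and below in HG3 and MEC1, with no overlap in any line. The log2 values were 0.16, -0.11 and -0.33, with an adjusted p for the difference between lines of 9.7e-10 (edgeR). PDIA3, which works with calnexin and calreticulin, rose in JVM3 (0.19), as did P4HB, the founding isomerase (0.15). PDIA6 fell in HG3 (-0.28) and MEC1 (-0.19), and in JVM3 it was at -0.004 (adjusted p = 0.963).

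Among the 9 genes for degradation of misfolded proteins, 1 rose and 5 fell in JVM3, 3 rose and 3 fell in HG3, and 0 rose and 4 fell in MEC1. Besides EDEM1 and EDEM2, no other was called across lines by edgeR or DESeq2. EDEM3, the remaining mannosidase of the family, stood at 57.9 and 60.6 CPM in wild-type and 66.9 and 70.7 in mutant JVM3 libraries, at 39.7 and 41.4 against 52.6 and 53.2 in HG3, and at 107 and 114 against 101 and 102 in MEC1. It rose in JVM3 (log2 0.22) and HG3 (0.38) and fell in MEC1 (-0.12), so in JVM3 and HG3 it moved opposite to EDEM1 and EDEM2. HERPUD1, a membrane protein that links SYVN1 complexes and is strongly induced by ER stress, fell in JVM3 (log2 -0.30) and rose in HG3 (0.16). Its libraries held 290 and 296 CPM in wild-type and 238 and 239 in mutant JVM3, 141 and 142 against 157 and 159 in HG3, and 131 and 133 against 128 and 132 in MEC1, where the groups overlapped. In JVM3 HERPUD1 therefore went down while HSPA5 and CALR went up in the same libraries. SEL1L, the adaptor that holds SYVN1, stood at 263 and 266 CPM in wild-type and 246 and 256 in mutant JVM3 libraries, at 186 and 194 against 207 and 209 in HG3, and at 180 and 188 against 138 and 142 in MEC1. It rose in HG3 (0.13) and fell in MEC1 (-0.39), with -0.08 in JVM3 (adjusted p = 0.143). DERL3, a derlin, stood at 3.96 and 3.23 CPM in wild-type and 1.92 and 2.17 in mutant JVM3 libraries, at 4.63 and 3.95 against 3.34 and 2.85 in HG3, and at 29.5 and 29.4 against 27.9 and 29.4 in MEC1. DERL3 fell in JVM3 (-0.80) and HG3 (-0.48), the lines in which it was scarce, and in MEC1, where it was 8.23 times as abundant as in JVM3, its value was -0.04 (adjusted p = 0.745). Across lines DERL3 was at -0.40 (SE 0.22, edgeR adjusted p = 0.178). SYVN1, the ubiquitin ligase, fell in JVM3 (-0.27), and DERL1 and DERL2 were called in no line.

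**Figure D3:**
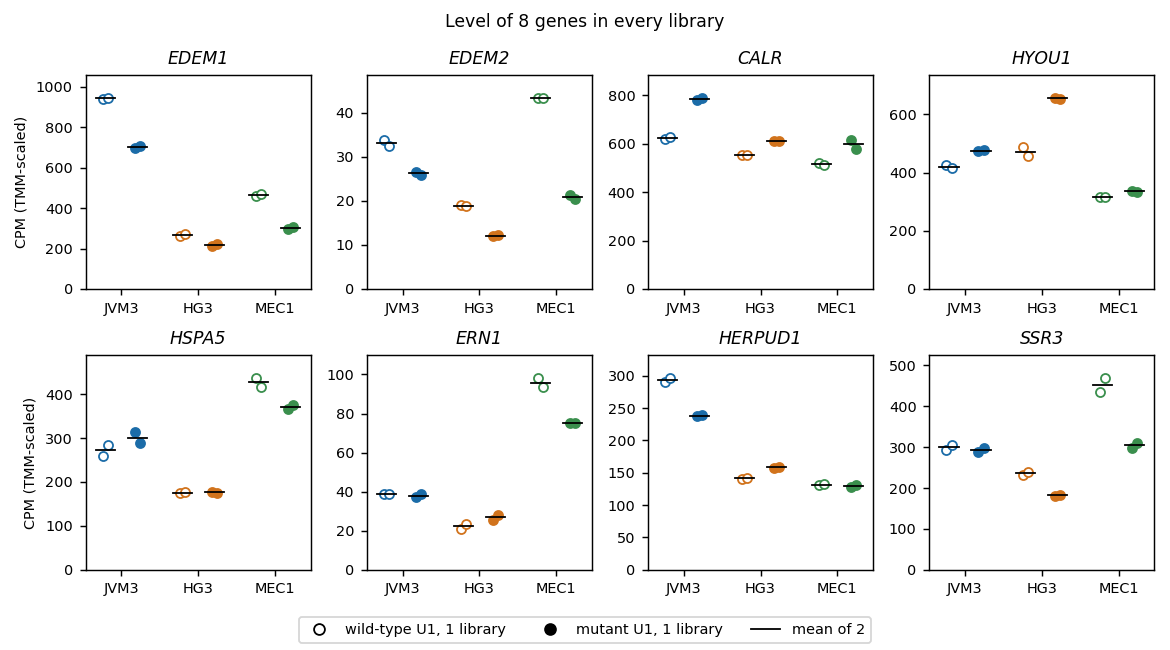
Level in CPM (vertical axes from 0) of 8 genes in all 12 libraries, with open circles for wild-type U1, filled circles for mutant U1 and a bar at the mean of 2 libraries. EDEM1 and EDEM2 are lower and CALR is higher with mutant U1 in every line, and HSPA5, ERN1 and HERPUD1 take different directions by line.

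The 8 translocation and signal peptide genes were lower mainly in MEC1, where 7 fell and 0 rose. In HG3 1 rose and 4 fell, and in JVM3 2 rose and 1 fell. All 8 differed in response between lines, where 56.2% of genes with at least 10 CPM did. Across lines 0 of the 8 were called. At an unadjusted p under 0.05 there were 3 (SSR2, SSR3 and SPCS3), all lower, where 4635 of all 21270 genes passed. DESeq2 called 1 of the 8, SSR2, and 6.27% of all genes. SEC61A1, the pore subunit of the channel, stood at 375 and 366 CPM in wild-type and 372 and 375 in mutant JVM3 libraries, at 312 and 301 against 337 and 332 in HG3, and at 384 and 378 against 295 and 283 in MEC1. It had the smallest p of the 35 genes for a difference between lines (adjusted p = 7.6e-12, edgeR), with log2 values of 0.01, 0.13 and -0.40. SSR2 and SSR3 are subunits of the translocon-associated protein complex, which sits beside the channel. SSR2 stood at 136 and 139 CPM in wild-type and 125 and 126 in mutant JVM3 libraries, at 145 and 141 against 106 and 101 in HG3, and at 180 and 183 against 139 and 138 in MEC1. It fell in every line, with no overlap, and was at -0.33 across lines (SE 0.10, adjusted p = 0.0754). SSR3 stood at 293 and 306 CPM in wild-type and 287 and 297 in mutant JVM3 libraries, which overlapped, at 231 and 240 against 181 and 183 in HG3, and at 436 and 469 against 299 and 310 in MEC1. SSR3 fell in HG3 (-0.37) and MEC1 (-0.57), and across lines it was at -0.33 (SE 0.16, adjusted p = 0.120). The signal peptidase subunits SPCS2 and SPCS3 fell in HG3 (-0.20 and -0.29) and MEC1 (-0.26 and -0.36), whereas SPCS1 rose in JVM3 (0.14). SSR1 fell in MEC1 (-0.32), and SEC61B, the small channel subunit, rose in JVM3 (0.11) and fell in MEC1 (-0.21).

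Among the 3 sensors and membrane-bound factors, CREB3L2 was lower in every line and ERN1 moved by line. ERN1 stood at 38.8 and 38.9 CPM in wild-type and 37.2 and 38.6 in mutant JVM3 libraries, at 21.1 and 23.5 against 25.7 and 27.9 in HG3, and at 98.0 and 93.6 against 75.0 and 75.1 in MEC1. It rose in HG3 (log2 0.27) and fell in MEC1 (-0.35), and even after its fall the MEC1 level stayed above that of every JVM3 and HG3 library. ATF6, a transcription factor released from the ER membrane by cleavage, stood at 102 and 102 CPM in wild-type and 98.3 and 103 in mutant JVM3 libraries, at 106 and 108 against 107 and 105 in HG3, and at 87.7 and 86.1 against 79.9 and 84.8 in MEC1. ATF6 was called in no line, and its difference between lines was not called (adjusted p = 0.666, edgeR). Across lines its log2 value was -0.04 (SE 0.02). CREB3L2, a related membrane-bound factor that drives secretory genes, stood at 51.7 and 53.1 CPM in wild-type and 48.6 and 46.0 in mutant JVM3 libraries, at 69.2 and 69.0 against 54.0 and 54.6 in HG3, and at 110 and 110 against 84.0 and 91.3 in MEC1. It fell in each line without overlap and was at -0.28 across lines (SE 0.06, adjusted p = 0.0923).

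The other genes of the pathway, in 6 lists of 129 genes, were called across lines at a share near the background. Of 128 tested, 1 rose and 5 fell, or 4.69%, against 3.69% of all genes and 4.8% of those with at least 10 CPM. DESeq2 called 5 folding genes (1 rose, 4 fell) where edgeR called 1, and 3 sensor genes, all lower, where edgeR called 1. DESeq2 also called more of all genes, 6.27% against 3.69% in edgeR. ERP29, an ER-resident thioredoxin-fold protein, rose (log2 0.41, SE 0.05, adjusted p = 0.0293, 1 of 27 folding genes). Of 21 further degradation genes 2 fell, RHBDD1, a rhomboid protease (-0.56), and UBE2J1, a ubiquitin-conjugating enzyme of the ER membrane (-0.56). One gene fell in each of 3 lists: SEC63, a partner of the channel (-0.49, of 18), OST4, a small subunit of the oligosaccharyltransferase (-0.50, of 22), and MBTPS1, the site-1 protease that cleaves ATF6 (-0.37, of 17 tested). In the list of 23 genes for export from the ER, edgeR called 0, DESeq2 called 1, lower, and 1 had an unadjusted p under 0.05 in edgeR. Within JVM3, 22 of the 128 rose and 19 fell, or 17.2% and 14.8%, against 10.4% and 12% of all genes. Within HG3, 19 rose and 49 fell (14.8% and 38.3%, against 18.7% and 19.6%), and within MEC1, 16 rose and 63 fell (12.5% and 49.2%, against 18% and 18.6%). Of genes with at least 10 CPM, 18.7% rose and 19.8% fell in JVM3, 26% and 33% in HG3, and 28.4% and 30% in MEC1. XBP1, the factor activated by ERN1, stood at 275 and 279 CPM in wild-type and 237 and 249 in mutant JVM3 libraries, at 133 and 140 against 83.8 and 84.2 in HG3, and at 299 and 311 against 225 and 229 in MEC1. XBP1 fell in each line without overlap, and across lines its value was -0.44 (SE 0.15, adjusted p = 0.0529). These counts do not separate its spliced from its unspliced form. EIF2AK3 fell in HG3 (-0.37) and MEC1 (-0.36), with -0.10 in JVM3 (adjusted p = 0.194 in edgeR). ATF4, the factor translated when EIF2AK3 is active, fell in JVM3 (-0.30) and MEC1 (-0.35), with -0.06 in HG3 (adjusted p = 0.207 in edgeR). DDIT3, a target of ATF4, rose in JVM3 (0.29), with 0.10 in HG3 and -0.10 in MEC1, where it was not called. Across lines none of these 3 was called by edgeR (adjusted p from 0.114 to 0.643). Of the 8 plasma cell markers, which include XBP1 and MZB1 from the pathway lists, JCHAIN (-0.75) and TNFRSF17 (-0.41) fell across lines. The list summed to 1435 to 1452 CPM in wild-type and 1562 to 1607 in mutant JVM3 libraries, 2120 to 2149 against 1857 to 1865 in HG3, and 2084 to 2126 against 1488 to 1490 in MEC1. With mutant U1 its sum was thus higher in JVM3 and lower in MEC1, as was the summed level of the 35 genes. In HG3 it was lower, where the sum of the 35 genes was higher, by less than HYOU1 alone rose. In JVM3 most single markers went the other way from the sum: 5 of the 8 fell and 2 rose, with a median log2 change of -0.19. In HG3 6 fell, and in MEC1 7 fell and 1 rose, PRDM1 (0.28), a transcription factor of plasma cells. Its part in these results was not tested. Of the 6 B cell markers CD37 (-0.58) fell across lines.

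Genes with and without a promoter match were set side by side as a description. The 10 genes with a match had median log2 changes of 0.11, 0.03 and -0.07 for JVM3, HG3 and MEC1, and the 21 without had 0.01, -0.05 and -0.32. In JVM3, 5 of the 10 rose and 1 fell, and of the 21, 6 rose and 5 fell. In HG3, 3 of the 10 rose and 3 fell, and of the 21, 4 rose and 7 fell. In MEC1, 2 of the 10 rose and 4 fell, and of the 21, 1 rose and 14 fell. Of all genes 10.4% rose and 12% fell in JVM3, 18.7% and 19.6% in HG3, and 18% and 18.6% in MEC1. For genes with at least 10 CPM these shares were 18.7% and 19.8%, 26% and 33%, and 28.4% and 30%. Most genes with a match are chaperones and SSR3 is the only translocation gene among them, so match and role cannot be told apart. EDEM1 and EDEM2 are among the 21.

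Splice junctions were tested next, because the 5' end of U1 pairs with the 5' splice site. Junctions that use the same acceptor were compared with each other, so the percent use of a junction is its share of the reads at that acceptor. The table has 6 columns, a wild-type and a mutant one for each line. They hold 15537369 to 17917160 reads each and no replicates within a line, so n = 3 lines. Coordinates are in hg19. Of the 35 genes, 20 had at least 1 testable junction, 88 junctions in all. Of these 1 was called (adjusted p under 0.05 in edgeR's diffSpliceDGE, at least 5 points on average, and 1 sign throughout the lines), against 2.78% of all 35857 junctions tested. The junction lies in EDEM2, on chromosome 20, minus strand, from 33703736 to 33705501, and its 5' splice site is not in the annotation. It took 4 of 135 reads at its acceptor in wild-type JVM3 (2.96%, 95% Wilson interval 1.16 to 7.37) and 31 of 108 in mutant JVM3 (28.7%, 21.0 to 37.9). In HG3 it took 3 of 57 (5.26%, 1.81 to 14.4) and 14 of 34 (41.2%, 26.4 to 57.8), and in MEC1 6 of 173 (3.47%, 1.60 to 7.36) and 32 of 96 (33.3%, 24.7 to 43.2). Every mutant column was above every wild-type column, with no overlap of the intervals. The mean use went from 3.90% ± 1.21 to 34.4% ± 6.31 (SD, n = 3 lines), a change of 30.5 points (adjusted p = 7.9e-06). The annotated junction into the same acceptor, from 33703736 to 33706401, went from 86.0% ± 3.27 to 57.7% ± 5.62 (SD, n = 3 lines, adjusted p = 0.136). Shares at an acceptor move against each other, so this loss and that gain are not separate results.

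Junctions that share a 5' splice site gave the other side of the same event. Of 126 such junctions in 21 genes 1 was called, against 1.8% of all 39252 tested, from 33705656 to 33706401 in EDEM2, which leads from the annotated 5' splice site to an unannotated acceptor. Its use was 4% in wild-type and 27.4% in mutant JVM3, 7.84% and 48.6% in HG3, and 2.60% and 31.6% in MEC1, a mean change of 31.0 points (adjusted p = 0.000935, edgeR's diffSpliceDGE). Together the pair outlines a stretch of 156 bases, from 33705501 to 33705656, inside the annotated intron of 2664 bases, and 156 is a multiple of 3. Its sequence could not be read here, so its effect on the protein was not checked. The reads do not show whether both junctions occur in 1 molecule. The annotated exons on either side are printed because they are what the stretch would be joined to. They were read from GENCODE release 29 transcripts, placed in hg19 by their intron lengths. Capitals mark the last 3 bases of the exon, which belong to a 5' splice site that U1 pairs with. That site serves both the annotated junction and the one into the stretch. The 5' splice site of the stretch itself, at 33705501, is not shown.
EDEM2 exon before the junctions, chr20:33706401-33706522, minus strand: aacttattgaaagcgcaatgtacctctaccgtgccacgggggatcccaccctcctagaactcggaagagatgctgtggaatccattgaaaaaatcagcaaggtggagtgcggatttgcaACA
EDEM2 next exon, its first 30 bases, chr20:33703707-33703736, minus strand: atcaaagatctgcgagaccacaagctggac

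**Figure D4:**
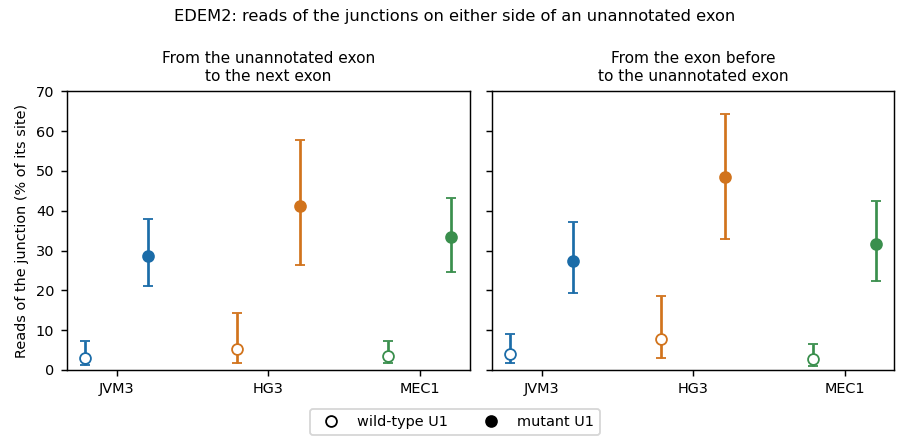
Use of the 2 unannotated EDEM2 junctions (vertical axis, percent of reads at the shared acceptor on the left and at the shared 5' splice site on the right) in each line, with open circles for wild-type U1, filled circles for mutant U1 and bars for 95% Wilson intervals. Mutant columns sit between 27.4% and 48.6% and wild-type columns between 2.60% and 7.84%.

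In the comparison at a shared acceptor, a further 5 junctions of these genes had an adjusted p under 0.05 but changed by less than 5 points, and 12 of the 88 had an unadjusted p under 0.05. The shares of all junctions at these thresholds are not given here. In EDEM1 an unannotated 5' splice site, from 5236650 to 5236894 on chromosome 3, was used at 2.31% ± 0.383 with wild-type and 6.56% ± 2.34 with mutant U1 (SD, n = 3 lines), and an unannotated junction from 5249948 to 5252805 at 3.48% ± 0.646 and 6.78% ± 1.16. In CANX an annotated junction from 179126050 to 179132680 on chromosome 5 went from 7.06% ± 1.32 to 11.5% ± 1.37 (SD, n = 3 lines, adjusted p = 0.0151), and a neighbour from 179126006 from 0.401% to 1.37%. HYOU1 had a junction from 118919598 to 118920268 on chromosome 11 at 1.26% and 3.29%. In that comparison all 6 junctions with an adjusted p under 0.05, the called one included, were used more with mutant U1 in every line. Shares at 1 acceptor move against each other, so every gain has a loss beside it. In EDEM1 the main junction into the acceptor at 5236894 went from 97.7% to 93.4%, at an unadjusted p of 0.654 (diffSpliceDGE). The test thus gave a small p to the minor junction and not to the main one, so the shared direction is not a separate result. Over all genes, the junctions called there, which also needed at least 5 points, were mostly used more (717, with 281 used less). At a shared 5' splice site the directions were mixed: besides the called junction 4 had an adjusted p under 0.05, and 3 of these 4 were lower with mutant U1. In SEL1L a junction to an unannotated acceptor, from 81950678 to 81952016 on chromosome 14, was used at 1.79%, 2.62% and 1.60% in wild-type JVM3, HG3 and MEC1 and had 0 reads in the mutant columns, where the upper Wilson limits were 1.04%, 1.16% and 1.63% (adjusted p = 0.0251, edgeR's diffSpliceDGE). The other three had reads in 1 JVM3 column alone: CALR from 13054443 to 13054534 on chromosome 19 (0.993%) and HERPUD1 from 56976149 to 56977042 on chromosome 16 (1.24%) in the wild-type column, and CALR from 13049584 to 13050012 (1.83%) in the mutant column. DERL3 held the largest change among the junctions that were not called apart from EDEM2, 17.4 points in a pair of annotated junctions, but these had 46 reads over all columns and 1 to 3 reads in the JVM3 and HG3 columns, and the adjusted p was 1. Another EDEM2 intron held an unannotated stretch of 51 bases, from 33721908 to 33721958. The mean use of its junctions went from 15.9% to 22.1% at the acceptor and from 15.3% to 22.9% at the 5' splice site. Both were higher with mutant U1 in every line, and neither was called. Junction reads per gene followed the gene counts of the called genes: mutant columns held 0.719, 0.853 and 0.711 times the wild-type junction reads of EDEM1 in JVM3, HG3 and MEC1, scaled to column totals, and 0.740, 0.618 and 0.483 times those of EDEM2. Both tables come from the same libraries, so this is a second count of the same RNA.

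Counting limits bear on single genes. An annotated antisense gene lies over an exon of 20 of the 35, 4 have another gene over an exon on their own strand (SYVN1, DNAJB11, HSP90B1 and SSR1), and 4 have named pseudogenes (HSPA5, PDIA3, SSR1 and SPCS2). The libraries are stranded, per the labels' protocols, but how strand was handled in counting is not stated, so reads of these pairs may be shared. EDEM1 has an annotated antisense gene over an exon, and EDEM2 has none.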

How the data were processed

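The 12 libraries were stranded and made from ribosome-depleted total RNA after Trizol extraction, per the labels' protocols. The submitters' processing notes name STAR (2.5.4b), HTSeq (0.9.1) and the build hg19 (GRCh37). Annotation release and strand setting are not stated there. The authors deposited raw read counts per gene and raw junction counts, the latter in 1 column per line and U1 status with no replicate number, taken as pooled.

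Gene counts were fitted in R 4.3.3 with edgeR 4.0.16 (TMM, filterByExpr over the 6 groups, robust quasi-likelihood tests, Benjamini-Hochberg over 21270 genes, threshold 0.05). Across lines, replicates were summed and the line was a block, and an SE is that of the 3 lines' values. The 6 groups of 12 libraries gave all tests within and between lines. Entries without a gene name did not count towards totals or fits: reads outside features were 17.7% to 24.9% of a library's entries, reads not uniquely aligned 29.0% to 34.9% and ambiguous reads 0.897% to 1.06%. Replicates of a group differed by more than counting noise (mean chi-square per gene 2.275 to 5.287 at 1 degree of freedom).

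Junctions were tested with diffSpliceDGE (at least 20 reads, at least 2 junctions per acceptor, line as block). The junction table names no genes, so junctions were assigned by matching exact intron lengths to GENCODE release 29 at 1 shift (at least 3 introns coinciding, and 2 times the next best place), and no coordinates of that build were converted. Junctions of the other 11 genes were not analysed here. Intervals are 95% Wilson intervals and cover counting error only. The fit across lines and the junction fit at shared acceptors were tested on simulated data. The fits within and between lines and the one at shared 5' splice sites were not.

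The 35 genes and all lists were chosen with earlier results of these data known. Values in every library are given for genes called across lines, HSPA5, ERN1, ATF6 and HERPUD1, the 6 largest changes across lines, the 4 smallest p for a difference between lines and the 4 largest wild-type folds. Of the pathway lists, called genes are named. One gene of the marker lists is not reported here. Junctions named are those called and the 3 largest changes not called. XBP1, EIF2AK3, ATF4, DDIT3, PRDM1, CALR, genes given by log2 value alone, junctions under 5 points and the EDEM2 stretch of 51 bases were added after their values were seen. Alternatives were DESeq2 1.42.0, limma 3.58.1 for junction ratios, other normalization, filters, blocks and designs, and fits without each line or library.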

Additional observations from a re-analysis of the deposited data

Results flagged for a closer look

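The response to mutant U1 differed between lines for 28 of the 35 genes by edgeR's F-test of the interaction, and this is what singled them out. The share was 80%, against 32% of all genes and 56.2% of those with at least 10 CPM. Among the genes given library by library, the adjusted p was smallest for the channel and its neighbours, SEC61A1 (7.633e-12) and SSR3 (1.204e-10), followed by SEL1L (3.506e-10), PDIA4 (9.673e-10) and HERPUD1 (5.019e-09). SEC61A1 and SEL1L rose in HG3 and fell in MEC1, and PDIA4 rose in JVM3 and fell in HG3 and MEC1. HERPUD1 fell in JVM3 and rose in HG3.

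EDEM2 (1.607e-08), EDEM1 (3.521e-07), SSR2 (5.587e-06) and CREB3L2 (0.03206) fell in every line, and their tests concern the size of the fall: EDEM2 fell by 0.33 in JVM3, by 0.65 in HG3 and by 1.05 in MEC1 on the log2 scale. CALR (0.002316) rose in every line, by 0.34, 0.14 and 0.21. ERN1 (6.026e-08), EDEM3 (8.464e-08) and HSPA5 (3.139e-05) took opposite directions in at least 1 pair of lines. DERL3 (0.0005961) fell in JVM3 and HG3, and its value in MEC1 was -0.04. These p-values rest on technical replicates, so a difference between lines cannot be told apart from a difference between the cultures sequenced.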

How the results depend on the processing

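Across lines, the 2 genes called became 0 without the line block (0 at an unadjusted p under 0.05), 6 without the low-count filter, and 12 (3 rose, 9 fell) when the 12 libraries entered unsummed. Over all genes the calls went from 784 (3.69%) to 0, 2540 (6.08%) and 6641 (31.2%) in these fits, so the counts for the 35 genes moved with those of all genes. Without JVM3 1 was called, without HG3 1 and without MEC1 0 (8 at an unadjusted p under 0.05), and without any single library 2. DESeq2 called 3, adding SSR2, and 1333 of all genes (6.27%). EDEM1 and EDEM2 were lower in every one of these fits, the fit without the line block included. Within lines, leaving out 1 library gave 11 to 15 genes in JVM3, 14 to 18 in HG3 and 19 to 22 in MEC1. The lone library was then taken to vary like the other groups. Without JVM3, 2 junctions were called, the second being CANX 179126050 to 179132680. The cause of these changes was not tested.

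Replicate numbers paired the libraries weakly if at all: with 2 numbers only, correlations of deviations between groups were 0.0171 to 0.1872, all of them positive. Whether libraries of the same number share a batch was not tested. With the replicate block, 11 genes (3 rose, 8 fell) were called from the unsummed libraries, and 22, 21 and 24 within JVM3, HG3 and MEC1. Signs turned only for genes not called in the comparison concerned: across lines, leaving out a line or library moved HERPUD1 between -0.165 and 0.0517, HSPA5 between -0.116 and 0.0766, ERN1 between -0.201 and 0.122, SEC61A1 between -0.193 and 0.0752, SEL1L between -0.237 and 0.0346 and PDIA4 between -0.234 and 0.0318. HSPA5 in HG3 was -0.001794 with DESeq2, -0.001796 with RLE factors, -0.0214 without the filter and -0.0202 to 0.0142 without 1 library. In JVM3, leaving out 1 library put SEC61A1 at -0.0047 to 0.0311 and ATF6 at -0.0559 to 0.00596. Depth limits the junctions, with 46 reads over all columns at the DERL3 acceptor and 603 at that of EDEM2.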
